A study of Triticum aestivum with 15 samples.

Results

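The 200 transcripts whose level moved least while bread wheat seeds germinated were described here. They were the probe sets with the lowest standard deviation (SD) of log2(intensity + 16) over all 15 arrays, among the 5116 probe sets with an intensity of 1000 or more on every array. They made up 3.91% of those 5116 and 0.327% of the 61115 wheat probe sets. Because the rule used every array, the level, the spread and the stage changes of the members are given as a description without a test. Seeds of the cultivar Jimai 20 (Triticum aestivum) were sampled dry at 0 hours after imbibition (HAI) and after 12, 24, 36 and 48 HAI in water, which was sterile per the labels, and the study's methods give imbibition in the dark. All groups were of this cultivar. Each stage had 3 biological replicates, and total RNA of germinating seeds was hybridized to Affymetrix Wheat Genome Arrays. The intensity is the signal that the authors deposited, on a linear scale on which every array had nearly the same trimmed mean, between 495 and 498. A steady transcript is thus one that kept its level relative to this trimmed mean, which leaves out the probe sets at both ends of the scale. In whole seeds, fewer cells of a type and less RNA per cell cannot be told apart.

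A mature seed carries stored messenger RNA laid down during maturation, and imbibition restarts respiration and translation on it before new transcription replaces it. As the radicle emerges, transcripts of seed maturation disappear and those of growth accumulate. Transcripts that hold a constant share through this change are of practical use, since quantitative PCR divides the level of a gene by that of a reference transcript assumed to be steady. Genes of the cytoskeleton, of translation and of the ubiquitin pathway are commonly used as such references.

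Markers of grain were found to different degrees. All 5 probe sets of Em, a late embryogenesis protein of the embryo, were at a mean of 1000 or more in the dry seed, as were 9 of 10 for late embryogenesis abundant (LEA) proteins and dehydrins, 3 of 10 for gliadin, a storage protein, and 0 of 3 for serpin. The brightest Em probe set had a mean of 74153 at 0 HAI and 375 at 48 HAI, and the brightest LEA probe set had 46649 and 8606. No pair of arrays held identical columns, and arrays of the same stage correlated between 0.930 and 0.969 across probe sets.

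The member of lowest spread was Ta.6467.1.S1_x_at, which has no gene name here. Its intensity was 8610, 9012 and 8869 at 0 HAI, 8453, 8513 and 8256 at 12 HAI, 8565, 8649 and 8390 at 24 HAI, 8577, 8251 and 7878 at 36 HAI, and 7817, 8078 and 8194 at 48 HAI. The highest array was 1.15-fold above the lowest, and the SD was 0.0577 in log2. Even here the dry seed and the 48 HAI arrays did not overlap, with the dry seed higher. The next lowest, Ta.643.1.A1_at, had 2447, 2350 and 2152 at 0 HAI, 2492, 2219 and 2277 at 12 HAI, 2320, 2403 and 2373 at 24 HAI, 2419, 2308 and 2552 at 36 HAI, and 2249, 2445 and 2325 at 48 HAI. All of its stages overlapped. Ta.11627.1.S1_at, the third, had an SD of 0.0681 and stage means from 2564 ± 59.5 (SD, n = 3) at 48 HAI to 2883 ± 78.2 (SD, n = 3) at 0 HAI.

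Over the 200 members, the highest of the 15 arrays was 1.35-fold above the lowest in the median, with a range from 1.15-fold to 1.53-fold. The same median was 2.42-fold for the other 4916 probe sets at 1000 or more. The stage means of a member lay within 1.19-fold of each other in the median, against 2.09-fold for the others. For 17 members the stage means lay within 1.1-fold, for 104 within 1.2-fold and for 191 within 1.3-fold. The spread between arrays of the same stage differed less between the sets, with a median within-stage SD of 0.0844 for the members and 0.101 for the others. Both measures are parts of the SD by which the members were chosen.

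The limit of 200 did not fall at a gap. The last members inside it, Ta.19222.1.S1_at, Ta.7812.2.A1_at and Ta.39.4.S1_x_at, had SD of 0.1501, 0.1501 and 0.1502. The first probe sets outside it, Ta.28170.2.S1_x_at, Ta.14577.1.S1_at and Ta.22817.1.S1_at (LOC543046), had 0.1503, 0.1508 and 0.1508. A further 395 probe sets had an SD at or under that of the last member but did not reach 1000 on every array, and their median mean intensity was 3.98, a level at which the added 16 makes log2 values nearly constant.

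**Figure D1:**
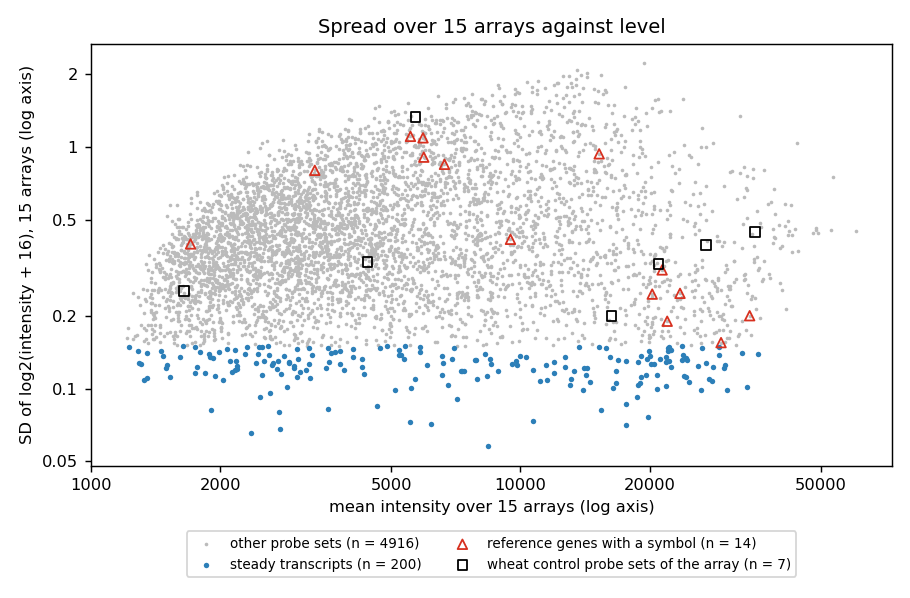
SD of log2(intensity + 16) over 15 arrays (y, log axis) against the mean intensity (x, log axis) for the 5116 probe sets at 1000 or more on every array. Blue points are the 200 steady transcripts, grey points the other 4916, red triangles 14 probe sets of reference genes with a symbol and black squares 7 wheat control probe sets of the array. No triangle or square lies among the blue points.

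The members covered nearly the whole range of levels, from a mean of 1226 for TaAffx.16100.1.S1_at to 35808 for Ta.912.2.S1_at, with a median of 6561. They were most frequent among the brightest probe sets. When the 5116 were split by level into 5 bins of equal size, the 4 dimmer bins held 34, 30, 21 and 32 members, and the brightest held 83, or 8.11% of its 1023 probe sets. The median within-stage SD of all probe sets in the brightest bin, 0.101, was close to the 0.0959 of the middle bin, which held the fewest members. Ta.912.2.S1_at had 40016, 40144 and 39511 in the dry seed and between 29485 and 39040 on the 12 imbibed arrays, so its dry seed values lay above all others. Its highest value was the highest of any member, and the brightest probe set on an array reached from 36462 to 113630.

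Of the members, 18 carried a gene symbol in the probe table, for 16 genes, and 182 had none. Most of these symbols are locus numbers without a described role in the tables used, so the members cannot be sorted by function. A role was given for LOC778410, for which other probe sets match a rice protein of the aldose 1-epimerase family, enzymes that interconvert forms of sugars, and for LOC543299, which has the synonym AGP-S, the small subunit of ADP-glucose pyrophosphorylase, the enzyme that makes ADP-glucose for starch synthesis. Its probe set Ta.242.1.S1_at had 3146, 3224 and 3252 at 0 HAI, 2813, 2730 and 2706 at 12 HAI, 2857, 2748 and 2709 at 24 HAI, 3504, 3296 and 3077 at 36 HAI, and 2757, 2818 and 3051 at 48 HAI. The arrays at 12 and 24 HAI lay below all those at 0 and 36 HAI, and the SD over all arrays was 0.122.

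LOC543447 was the steadiest member with a symbol, in sixth place of 5116. Its probe set Ta.2982.1.S1_a_at had 5449, 5198 and 5360 at 0 HAI, 5406, 5868 and 5561 at 12 HAI, 5189, 5461 and 5360 at 24 HAI, 5254, 5951 and 5364 at 36 HAI, and 6089, 5671 and 5821 at 48 HAI. The arrays at 48 HAI lay above those at 0 and 24 HAI and overlapped with the rest. LOC100049049 (Ta.4843.1.A1_at) followed with an SD of 0.0816 and 2069, 1944 and 1924 at 0 HAI, 1902, 1988 and 1836 at 12 HAI, 1954, 1891 and 1775 at 24 HAI, 2084, 2027 and 1864 at 36 HAI, and 1687, 1828 and 1862 at 48 HAI. Here the arrays at 48 HAI were the low ones, below those at 0 and 36 HAI.

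LOC100125704 (Ta.7532.2.S1_at) alternated between a pair of levels. It had 5380, 5241 and 5519 at 0 HAI, 4763, 4669 and 4784 at 12 HAI, 5423, 5358 and 5215 at 24 HAI, 5552, 5238 and 5268 at 36 HAI, and 4694, 4704 and 4588 at 48 HAI. The arrays at 12 and 48 HAI lay below all those of the other stages, although its SD of 0.0991 was among the lowest. LOC542907 (Ta.4468.1.S1_at, SD 0.102) was lowest at 12 HAI with 2536, 2638 and 2665, and highest at 48 HAI with 2984, 2984 and 3422. LOC542789 (Ta.181.1.S1_at, SD 0.120) was lowest in the dry seed with 1795, 2041 and 2083, and highest at 48 HAI with 2271, 2283 and 2597, without overlap.

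For LOC543174 (Ta.14203.1.S1_at, SD 0.106) all stages overlapped, with 14086, 15701 and 12696 at 0 HAI, 13694, 15053 and 13067 at 12 HAI, 13925, 15329 and 14777 at 24 HAI, 14766, 16399 and 14290 at 36 HAI, and 15455, 14862 and 13086 at 48 HAI. Its spread lay between replicates and not between stages. LOC778410 (Ta.13231.1.S1_at) was higher at 36 and 48 HAI, where its values were 9069 to 10092, than at 0 HAI, where they were 8006 to 8261. LOC542845 (Ta.248.1.S1_at) had 3315, 3367 and 3576 in the dry seed, above all imbibed arrays, which ran from 2611 to 3035.

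The largest differences between 0 and 48 HAI among members with a symbol were downward. LOC543170 (Ta.14579.1.S1_at) went from 8318, 7478 and 7990 at 0 HAI to 6102, 5870 and 5899 at 48 HAI, a log2 change of -0.41. LOC542934 (Ta.14635.1.S1_a_at) went from 30474, 29097 and 26762 to 22777, 22967 and 22878, a log2 change of -0.33. Their 48 HAI arrays lay below all those of every earlier stage. The remaining members with a symbol were LOC606340 and LOC606332, each with a pair of probe sets in the list, LOC543372, LOC780593 and LOC606341. Their SD ran from 0.107 for LOC606340 (Ta.27765.1.S1_x_at) to 0.143 for LOC606341 (Ta.23202.2.S1_s_at).

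**Figure D2:**
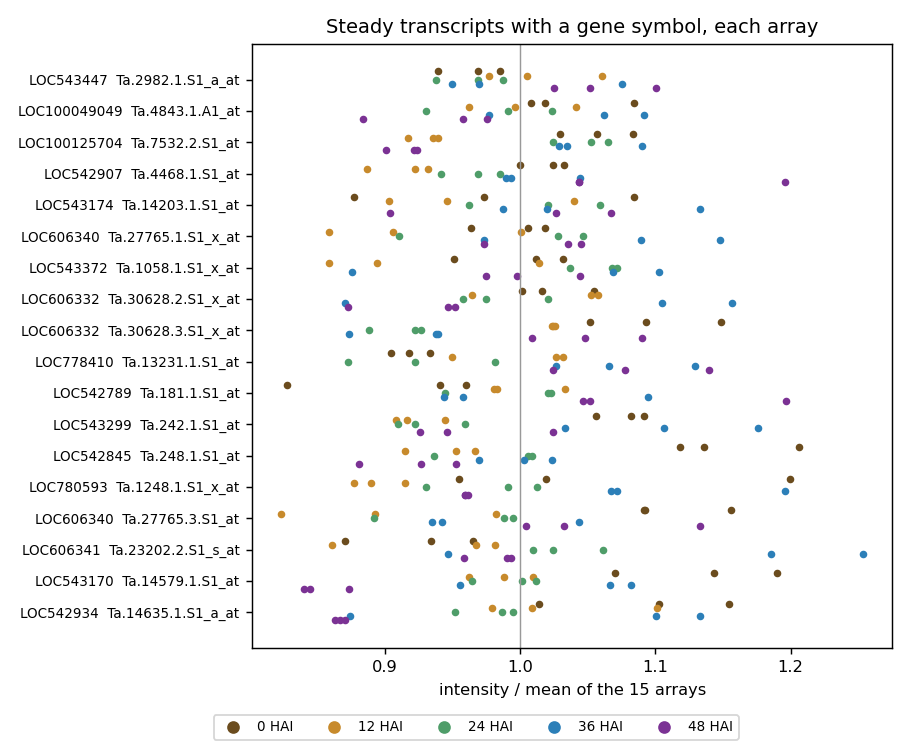
Intensity on each of the 15 arrays divided by the mean of the 15 (x) for the 18 members with a gene symbol, in order of SD from the top; each point is an array, coloured by stage. All points lie within 1.46-fold of each other in a row, and in the rows of LOC543170 and LOC542934 the arrays at 48 HAI are the lowest.

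Probe sets of the same gene were not all steady. The 16 symbols had 48 probe sets, of which 30 were not members, and 19 of these reached 1000 on every array, with SD from 0.162 to 0.604 and a median of 0.201. The median was 0.419 for all 4916 non-members at this level, and 6 of the 19 fell within the first 400 ranks. The examples below are the symbols with the widest differences. For LOC606332 the pair of members, Ta.30628.2.S1_x_at and Ta.30628.3.S1_x_at, had SD of 0.114 and 0.118. Its probe set Ta.30628.1.S1_at had an SD of 0.547, with 2795 ± 155 (SD, n = 3) at 0 HAI and 6894 ± 1013 (SD, n = 3) at 48 HAI. Ta.30628.4.S1_x_at also had its lowest mean in the dry seed, 7022 ± 174 (SD, n = 3), and 13956 ± 1052 (SD, n = 3) at 48 HAI. At the same symbol, some probe sets were thus level and others were about a doubling apart between the first and last stage.

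LOC606340 showed the same split among its 10 probe sets. The member Ta.27765.1.S1_x_at had stage means of 24600 ± 709, 22768 ± 1787, 24574 ± 1823, 26430 ± 2189 and 25144 ± 963 (SD, n = 3) from 0 to 48 HAI, with all stages overlapping. Ta.27765.2.S1_x_at of this symbol was highest in the dry seed, at 41329 ± 877 (SD, n = 3), while Ta.27765.4.S1_x_at was lowest there, at 14557 ± 1179 (SD, n = 3), and reached 30864 ± 3298 (SD, n = 3) at 36 HAI. LOC778410 had the widest difference. Its member had an SD of 0.119, whereas Ta.6492.3.S1_a_at had 1.102 and moved from 301 ± 35.7 (SD, n = 3) at 12 HAI to 2478 ± 98.0 (SD, n = 3) at 48 HAI. For LOC542934, LOC606341 and LOC543372 all probe sets were bright or moderately bright and had SD of 0.233 or less. Bread wheat carries 3 related genomes, and a probe set whose name ends in x_at holds probes that also match other transcripts, so the copies of a gene cannot be told apart from these values.

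**Figure D3:**
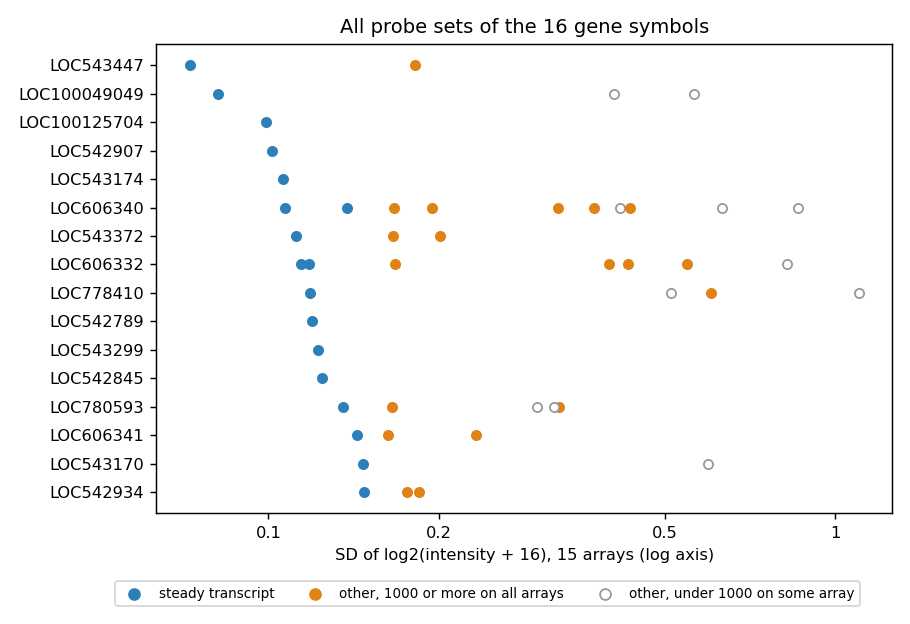
SD of log2(intensity + 16) over 15 arrays (x, log axis) of all 48 probe sets of the 16 gene symbols (y). Blue points are the 18 steady transcripts, orange points 19 other probe sets at 1000 or more on every array and open points 11 that fall under 1000 on some array. In LOC606340, LOC606332 and LOC778410 some orange points lie above an SD of 0.4.

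Of all members, 29.5% had names ending in x_at, against 24.1% of the other probe sets at 1000 or more and 11.1% of all 61115. The members came from 173 sequence clusters, groups of related sequences from which the array was designed, and 22 clusters held more than 1 member, with 49 members between them. Other probe sets of the same clusters were not in the list, and they were less variable than most. There were 128 of them at 1000 or more on every array after the cluster TaAffx.128418, which mixes 5 gene symbols, was left out. Their median SD was 0.240, against 0.425 for the other 4788 probe sets. Of the 128, 21.9% fell within the first 400 ranks of SD, against 3.59% of the others. The sets were not matched by intensity. Some of the 128 differ from a member only in the ending of the name, as Ta.659.1.S1_at does from Ta.659.1.S1_x_at. Related sequences share probes and hybridize to each other, so they are not independent readings.

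Ta.28291 was among the clusters with 3 members, and it is shown because it also held a named probe set that was not steady; it was chosen after its values were seen. The members Ta.28291.3.S1_x_at, Ta.28291.4.S1_at and Ta.28291.4.S1_x_at had SD of 0.0764, 0.131 and 0.133. Ta.28291.1.S1_at, which carries the symbol LOC606333, had an SD of 0.695, with 6268 ± 240 (SD, n = 3) at 0 HAI and 18747 ± 1625 (SD, n = 3) at 36 HAI. Ta.659 linked the list to a common reference gene. Its member Ta.659.1.S1_x_at, without a symbol, had 29679 ± 816 (SD, n = 3) at 0 HAI and 34862 ± 5738 (SD, n = 3) at 36 HAI, and a pair of other probe sets of this cluster carries the symbol LOC543386 with the synonym TEF1, translation elongation factor 1 alpha.

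Genes in common use as references were compared with the members by the same SD. Those with a symbol were tubulins, translation elongation factor 1 alpha, a ubiquitin-conjugating enzyme, the TATA-binding protein and profilin. ADP-ribosylation factor, the internal control of the study's quantitative PCR, had no probe set named in the sources used. Its spread was not computed. Of the 18 probe sets of 10 such genes with a symbol, 14 reached 1000 on every array. Their median SD was 0.406, about that of all 5116 probe sets at this level, 0.405. This median rests largely on tubulin, which gave 8 of the 14, with SD from 0.248 to 1.11 and several probe sets of the same gene. The rest had SD from 0.155 to 0.415. None was a member, where members are 3.91% of the 5116, so a count of 0 among 14 does not set these genes apart. TEF1, which brings aminoacyl-tRNA to the ribosome, came nearest. Its probe set Ta.659.3.S1_x_at ranked at 233 of 5116 with an SD of 0.155 and went from 34583 ± 2114 (SD, n = 3) at 0 HAI to 26142 ± 1462 (SD, n = 3) at 48 HAI. Ta.659.2.S1_x_at, of the same symbol, had an SD of 0.2003 and was lowest in the dry seed, so the TEF1 probe sets had their extremes at different stages.

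Profilin, an actin-binding protein (LOC543315), ranked at 506 with Ta.5057.3.A1_at, SD 0.190, and at 2628 with Ta.5057.1.S1_x_at, SD 0.415. The ubiquitin-conjugating enzyme UBC1 (LOC543219, Ta.2711.1.S1_x_at) had an SD of 0.246. The TATA-binding protein TBP1, a part of the transcription machinery (Ta.15.1.S1_at), had 0.397 and went from 2177 ± 129 (SD, n = 3) at 0 HAI to 1179 ± 128 (SD, n = 3) at 36 HAI.

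Tubulins, the subunits of microtubules, covered a wide range of spread. The 8 tubulin probe sets at 1000 or more on every array had SD from 0.248 to 1.11. Several are of the same gene, so they are not independent readings. Of the non-members at 1000 or more, 27% had their lowest stage mean in the dry seed, and 9 of all 10 tubulin probe sets did. For tubb3 (LOC543473, Ta.2837.1.S1_s_at) the mean went from 4219 ± 37 (SD, n = 3) at 0 HAI to 21281 ± 1600 (SD, n = 3) at 36 HAI. The exception was tubb2 (LOC543258, Ta.1544.1.S1_at), with 23105 ± 1920 (SD, n = 3) at 0 HAI, 27764 ± 938 (SD, n = 3) at 24 HAI and 18451 ± 496 (SD, n = 3) at 48 HAI.

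The array itself carries 25 control probe sets for wheat transcripts, of which 7 reached 1000 on every array. None of the 7 had an SD as low as that of the last member, a count that does not set them apart, since members were 3.91% of the probe sets at this level. All probe sets for actin, elongation factor 1 alpha and glyceraldehyde-3-phosphate dehydrogenase among the 25 were dim. A dim control does not give the level of its transcript. Those for elongation factor 1 alpha had means of 67.1, 67.9 and 220, while the TEF1 probe sets above had 29300 and 34153. The steadiest was the 3' probe set of ubiquitin, the protein tag for degradation, with an SD of 0.1998 and stage means of 19957 ± 919 at 0 HAI and 13793 ± 552 at 48 HAI (SD, n = 3). Its 5' probe set went from 39819 ± 1297 to 18134 ± 847 (SD, n = 3), an SD of 0.393. The control for 18S ribosomal RNA went from 55896 ± 4744 at 0 HAI to 26684 ± 1179 (SD, n = 3) at 48 HAI.

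Signal at the 3' end divided by that at the 5' end, a sign of RNA quality and labelling, moved with the stages. For ubiquitin it was 0.502 ± 0.0321 in the dry seed and 0.762 ± 0.0595 at 48 HAI (SD, n = 3). For glucose-6-phosphate dehydrogenase it was 9.53 ± 1.31 in the dry seed and 28.6 ± 7.38 at 48 HAI (SD, n = 3). Its part in which probe sets were steady was not tested.

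Across the members there was little common movement. On values scaled by the authors, the 4 successive steps between stages had median log2 changes of -0.04, 0.01, -0.01 and 0.01 over the members, and the whole course from dry seed to 48 HAI had -0.04. The single changes from 0 to 48 HAI ran from -0.41 to 0.40. The dry seed was the stage of the highest mean for 60 members and of the lowest for 38, or 30% and 19%. The shares were 35% and 27% for the other probe sets at 1000 or more. At 48 HAI, 46 members were highest and 48 lowest, or 23% and 24%, against 20.2% and 21.9% of those others. At 24 HAI, 35 members were highest and 26 lowest, or 17.5% and 13%, against 8.85% and 7.57%. Since the rule used these stages, nothing is read from these shares.

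In the moderated F-test of limma over the 5 stages, 47.7% of the 61115 probe sets passed an adjusted p of 0.05, and 89.6% of those at 1000 or more. Of the members, 4 passed. Since the rule used these stages, nothing is read from this count, and a member that did not pass was not shown to be constant. The count also rests on how limma moderates the variance: with a trend of the variance on the level, 95 members passed, where 48% of all probe sets did. From 0 to 48 HAI, 9 members were called higher and 8 lower, against 17% and 23.9% of all probe sets.

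The 4 called members had no symbol and are named after their values were seen. Ta.13721.1.S1_x_at was higher in the dry seed, with 11116, 11319 and 11822, and at 48 HAI, with 10960, 10810 and 10511, than at the stages between, where it had 9066 to 9577. Ta.29627.1.A1_at had the opposite shape, with 2862 to 2963 at 0 HAI, 3489 to 3801 at 12 HAI, 3519 to 3764 at 24 HAI, 3132 to 3214 at 36 HAI and 2904 to 3074 at 48 HAI. Ta.20769.1.S1_x_at was lowest in the dry seed, at 2907, 2955 and 2992, and 3479 or more on every imbibed array. Ta.4738.1.A1_at dipped at 36 HAI, with 2120, 1992 and 2026, below all other arrays. Their highest and lowest arrays were 1.304-fold to 1.415-fold apart. They were picked by the F-test over these stages, so the gaps between their stages follow from that choice.

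A single array carried a part of the members' spread. The third replicate at 36 HAI was the lowest of the 15 arrays for 37 members, with a median deviation of -0.07 from the members' own means, and 24 of the 37 were among the 83 brightest members named above. LOC606341 (Ta.23202.2.S1_s_at) had 27650 and 26146 on the other arrays of that stage and 20875 on this one, and LOC542934 had 29899 and 29053 against 23075. When this array was left out and the rule was applied again, 187 of the 200 members were chosen.

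Arrays with no part in a reduced choice were also read. When the rule was applied to 10 arrays, with 1 replicate number left out at every stage, 160, 166 and 164 of the 200 members were chosen again. These 10 arrays were also part of the full choice, so much of this overlap is built in. On the 5 arrays left out, the chosen probe sets had a median SD of 0.139, 0.122 and 0.129 across the stages, against 0.458, 0.449 and 0.442 for the other probe sets at 1000 or more. Of the 200 chosen, 118, 132 and 139 had an SD on these arrays at or under that of the last member of the full list, or 59.0%, 66.0% and 69.5%, against 2.81%, 2.63% and 3.03% of the others. The left-out arrays were scaled in the same way and are of the same seed stages, so the medians on them concern the replicates and not the scaling.

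**Figure D4:**
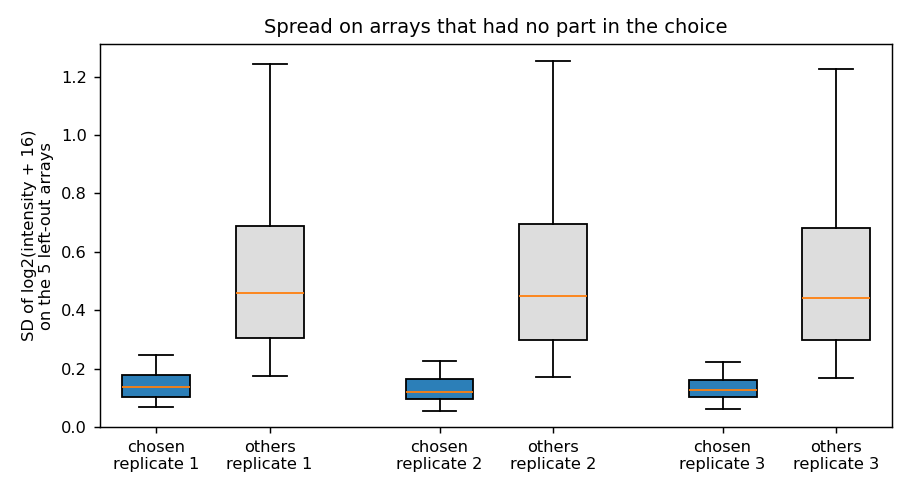
SD of log2(intensity + 16) over the 5 stages on the arrays of 1 replicate number (y), for the 200 probe sets chosen on the other 10 arrays (blue) and for all other probe sets at 1000 or more on those 10 (grey). Lines are medians, boxes the 25th to 75th and whiskers the 5th and 95th percentiles. The blue medians are 0.139, 0.122 and 0.129 and the grey ones 0.458, 0.449 and 0.442.

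Steadiness was relative to the scaling of the arrays. Setting every array to the same median intensity in place of the same trimmed mean left 27 of the 200 members in the list, and the members were then higher at 12 than at 0 HAI by a median of 0.38 in log2. A scaling of this kind moves all probe sets of an array by 1 factor, so for members chosen for small changes the direction is set by the factors. Quantile normalization left 100 members, with a median change of 0.06. The arrays also carry hybridization controls, which are added with the labelled sample, and poly-A controls, which are transcripts added to the RNA before labelling. The 18 hybridization controls had a geometric mean of 6280 ± 670 (SD, n = 3) at 0 HAI and 3095 ± 429 (SD, n = 3) at 36 HAI on the deposited scale. The 23 poly-A controls used had a geometric mean of 5697 ± 65.5 in the dry seed and, in order of the imbibed stages, 1857 ± 37.8, 1596 ± 15.5, 1091 ± 13.4 and 1908 ± 109 (SD, n = 3).

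With arrays scaled to the hybridization controls, none of the 200 remained, and the members were 1.55-fold higher at 12 than at 0 HAI in the median. With arrays scaled to the poly-A controls, none remained either, the members were 2.96-fold higher at 12 than at 0 HAI, and they were 1.73-fold lower at 48 than at 36 HAI, shifts that follow from the factors of the arrays. The median of all 61115 probe sets moved with them, by 0.82 from 0 to 12 HAI under the poly-A scaling and by -0.23 on the deposited scale. Under this scaling no probe set at 1000 or more had an SD as low as that of the last member. How much control was added to each RNA is not given in the sources used here, and whether the shift lies in the controls or in the seed RNA was not tested.

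**Figure D5:**
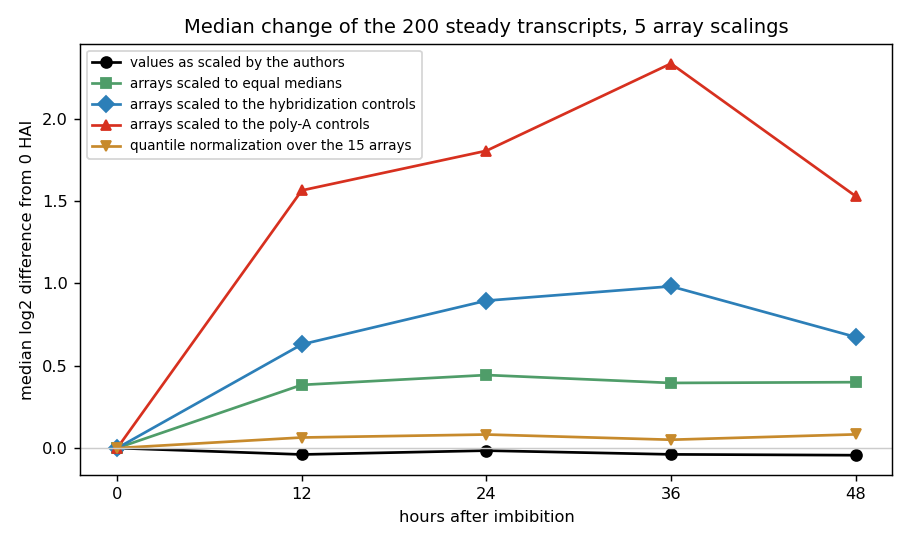
Median over the 200 members of the log2 difference from 0 HAI (y) at each stage (x, hours after imbibition) under 5 scalings of the arrays. On the values as scaled by the authors the lowest point of the line is -0.043, while under the poly-A controls it reaches 1.57 at 12 HAI and 2.34 at 36 HAI.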

How the data were processed

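Total RNA of dry and imbibed seeds was measured on 15 arrays, 3 for each of 5 stages. The authors summarized each probe set with MAS5, as the submitters' processing notes name it, and deposited an intensity on a linear scale, scaled per array. Methods also names the Robust Multichip Average, for averages of a group, and the deposited linear columns are not described as such values. Of 61290 probe sets, 175 controls (111 AFFX, 64 RPTR) were set aside. The SD was taken of log2 after 16 was added, with a minimum intensity of 1000 on every array. The F-test and the contrasts were fitted in limma 3.58.1 (R 4.3.3) with 5 stage means over all 61115 probe sets, and p were adjusted with the Benjamini-Hochberg method at 0.05. In data simulated for the F-test over 61115 probe sets, 22 of 100 changes of 2-fold and 66 of 100 of 4-fold were recovered, with 3 false of 91 calls. The planted changes were the only ones, each at a single stage, so the adjustment was stricter than in the real data, where 47.7% were called. The shares recovered are thus not those of the real test. Python 3.11.15 was used for the remaining steps (pandas 2.3.3, numpy 2.4.6) and for plots (matplotlib 3.10.9). Precision is limited by the number of arrays. Names came from the probe table (1273 probe sets), RefSeq synonyms and the descriptions in the study's tables, which were held in part and matched no member by accession. Named are all members with a symbol, of the others the 3 of lowest SD, the brightest, the dimmest and the last 3 inside the limit, the 3 just outside, and reference genes. The members, the lists and the tests were chosen with earlier results of these data known, and symbols of reference genes were added once the probe table was known.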

Additional observations from a re-analysis of the deposited data

How the results depend on the processing

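The choice of the 200 members rested on the scaling of the arrays. Of them, 27 remained with equal medians, 100 with quantile normalization and 0 with the hybridization or the poly-A controls. Their median log2 change from 0 to 12 HAI, -0.04 on the deposited scale, became 0.38, 0.064, 0.63 and 1.57 under these scalings in the same order, and that from 0 to 48 HAI, also -0.04, became 0.40, 0.083, 0.67 and 1.53. Members called in the F-test, 4 on the deposited scale, numbered 70, 59, 188 and 200 under them. The share of all probe sets called, 47.7% on the deposited scale, was 44%, 45.1%, 42.6% and 57.4%. With no value added before log2, 0 members and 45.1% of all were called, and with 64 added 44 members and 49.1%. With an intensity trend it was 95 members and 48%. When only probe sets at 32 or more on at least 3 arrays were tested, it was 14 members and 56.8%. Without single arrays the count of members was 0 to 2, beside 45.3% to 46.5% of all probe sets. Without a replicate number it was 0, beside 35.4% to 38.5%. The cause was not tested. Without single arrays, 175 to 188 of the members were chosen again. A minimum of 500 or 2000 kept 168 or 163, ranking by the coefficient of variation, the range of arrays or the range of stage means kept 192, 166 or 157. The deviations of same-numbered arrays correlated weakly, between -0.03 and 0.05 with a median of 0.014. Those of arrays with different replicate numbers correlated between -0.06 and 0.04, with a median of -0.007. For 9 arrays the closest array was of their own number. Whether the replicate numbers pair the samples was not tested. With the replicate block 1 member was called and 183 remained in the list. The count over all probe sets stayed within 1.5 times of 29165 under every setting tried. The SD of 26 named members moved beyond their within-stage SD only under scalings other than the deposited one.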
